A study of Mus musculus with 9 samples.

Results

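Counts of 10 genes of the integrated stress response and of serine synthesis were followed in the retina of 9 mice. The genes were taken by their names in the deposited count table and not by their values. They are Atf4, Atf5, Ddit3, Trib3, Chac1, Asns, Sesn2, Psat1, Phgdh, and Slc7a11, or 10 of the 54532 genes listed. All 10 passed the filter on low counts, which left 17540 genes for testing. Bulk RNA-Seq data came from retinas collected at P17 from wild-type C57BL/6 mice in 3 groups of 3. Control mice were kept in room air, and their label names DMSO. OIR mice went through the oxygen-induced retinopathy model, in which pups raised in high oxygen are returned to room air at P12, so that the poorly vascularized retina becomes ischemic, and they received DMSO. Treated OIR mice (OIR_32-134D) went through the same model and received 1 intraocular injection of 32-134D, the study's inhibitor of the hypoxia-inducible factors (HIFs), at P12. The dose is given as 70 ng in one label and as 70 ng/µl in another. The comparison of OIR with control addresses the response of the ischemic retina, and that of treated OIR with OIR addresses the effect of the inhibitor. By the study's description each sample is an independent isolation from a separate mouse, and the labels add nothing on this.

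In the integrated stress response, kinases that sense different stresses phosphorylate the translation factor eIF2. General protein synthesis then falls, while the mRNA of the transcription factor ATF4 is translated more, so that much of the control of ATF4 is not at the level of its mRNA. ATF4 protein induces genes for amino acid uptake and synthesis, tRNA charging, and feedback on the response itself. Serine synthesis from a glycolytic intermediate through PHGDH and PSAT1 is among the pathways it controls, and in the retina this enzyme route is known from Müller glia. mRNA counts such as these do not measure the phosphorylation of eIF2 or the amount of ATF4 protein.

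ATF4 dimers bind the C/EBP-ATF response element, whose core is written TGATGNAA. This core was searched on both strands of the RefSeq promoter windows of GRCm38.p6, which run from 250 bases before to 50 bases after each annotated start. All 10 genes have a window, and the core was found in that of 4, Trib3, Chac1, Asns, and Slc7a11. Of all 32851 windows, 3.97% hold it, and of all 27025 genes with a window, 4.51%. The 4 stretches are shown because they place the letters of this element beside genes whose counts are given below. They are written 5′ to 3′ on the strand of the gene, with the match in capitals.
Chac1, chr2:119351029-119351076 (+): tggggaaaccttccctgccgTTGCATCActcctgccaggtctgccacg
Asns, chr6:7693210-7693252 (-): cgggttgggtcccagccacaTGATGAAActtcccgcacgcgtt
Slc7a11, chr3:50443633-50443699 (-): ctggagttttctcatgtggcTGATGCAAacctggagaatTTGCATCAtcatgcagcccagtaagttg
Trib3, chr2:152344028-152344057 (-): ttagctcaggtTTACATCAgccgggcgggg
The match begins 193 bases before the start in Chac1 and 23 bases before it in Asns. In Slc7a11 there are 2 matches, 1 on each strand, which begin 66 and 47 bases before the start and do not overlap. In Trib3 it begins at base 15 after the start. A match describes letters alone and is not a measured binding site, and no match in the other 6 windows says only that these letters are not there.

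Total counts ranged from 16028731 to 27213184 per mouse, and counts were scaled to normalised CPM, the usual unit of counts relative to library size, with TMM factors. The 8 rod photoreceptor markers summed to between 36131 and 67985 CPM in every mouse, so the defining genes of the labelled tissue were present. Treated OIR mouse 2 stood apart from the others. Crystallin genes, which encode the major lens proteins, held 15.8% of its counts and at most 0.184% of those of any other mouse. All 11 lens markers were highest in this mouse, with a sum of 124462 CPM against 13.6 to 971 CPM in the other 8 mice. Retinal ganglion cell markers were lowest in it for 7 of 8 genes, with a sum of 41.2 CPM, and the next lowest sum was 96.7 CPM, in OIR mouse 6. The ranges of that sum were 1132 to 1636 CPM in control, 96.7 to 530 CPM in OIR, and 41.2 to 926 CPM in treated OIR mice, and no ganglion cell marker was at 0 in all mice. In bulk tissue, fewer cells of a type and less RNA per cell cannot be told apart. Fold changes that involve treated OIR mice are given with and without this mouse.

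Levels per length were compared first within the control retina, in RPKM (reads per kilobase, by the deposited gene length, on the CPM scale). Atf4 was highest, at 133 ± 5.58 RPKM (SD, n = 3), above 98.4% of the genes tested. Ddit3 followed at 32.4 ± 4.31 RPKM and Atf5 at 21.5 ± 0.650 RPKM, and the values of these 3 genes did not overlap with each other. Asns at 14.04 ± 2.53, Psat1 at 12.9 ± 2.26, and Sesn2 at 10.9 ± 0.0466 RPKM formed a middle range in which neighbours overlapped. Phgdh at 5.28 ± 2.06 and Trib3 at 4.66 ± 1.02 RPKM overlapped as well. Chac1 at 2.41 ± 0.296 and Slc7a11 at 0.547 ± 0.371 RPKM were lowest, and each lay apart from its neighbours. Slc7a11 was above only 15.01% of the genes tested, and its lowest count in a mouse was 49, as was that of Chac1. The lowest count of Atf4 was 5099. The last rank of Slc7a11 depends on its deposited length, 13922 bases, the longest of the 10. Before division by length, its control mean was 7.62 CPM, above the 3.95 CPM of Chac1.

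**Figure D1:**
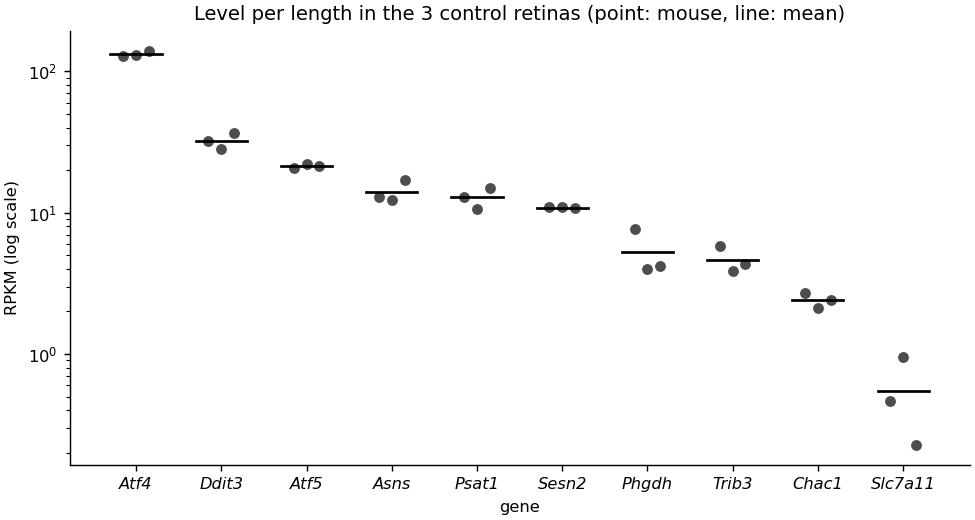
Level per length (RPKM, log scale) of the 10 genes in the 3 control retinas, with a point per mouse and a line at the mean. Atf4 lies at 133 RPKM and Slc7a11 at 0.547 RPKM, and the genes between them fall in a middle and a low range.

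No gene of the 10 passed the test in OIR compared with control. In edgeR's quasi-likelihood test with Benjamini-Hochberg adjustment over the 17540 genes, 0 of 10 passed an adjusted p below 0.05, where 0.941% of all genes did. None had an unadjusted p below 0.05 either, against 11.1% of all genes that were higher and 12.7% that were lower at that level. DESeq2 on control and OIR mice alone called 0 of 10 as well, where it called 15.6% of all genes. Log2 fold changes ran from -0.22 to 1.39 with a median of 0.00 and standard errors from 0.12 to 0.66, and the median of all genes was 0.03. For 2 of 10 genes all OIR mice lay above all control mice and for 1 of 10 below them, beside 15.9% and 17.2% of all genes. With 3 mice against 3, an exact two-sided permutation test cannot give a p below 0.1.

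Atf4, the central transcription factor, had values of 305, 307, and 329 CPM in control mice 1, 6, and 7 and of 329, 360, and 363 CPM in OIR mice 3, 5, and 6. The OIR values lay above the control values, with the lowest OIR mouse and the highest control mouse almost level. The log2 fold change was 0.16 ± 0.12 (SE), with an adjusted p of 0.45 from edgeR. Atf5, a related factor whose mRNA is also translated more under stress, had 41.6, 44.1, and 42.7 CPM in control and 35.8, 36.2, and 41.4 CPM in OIR mice. All 3 OIR mice were lower, by a small margin, and the log2 fold change was -0.18 ± 0.34. The gene overlaps Nup62 and Il4i1 on the other strand, and since the sources used here do not say whether counting used strand, some of its reads could be theirs.

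Ddit3, which encodes CHOP, a factor linked to cell death in prolonged stress, had 55.0, 48.3, and 63.1 CPM in control mice. Its values in OIR mice were 49.0, 54.3, and 60.6 CPM, inside the control range, and the log2 fold change was -0.02 ± 0.24. Ddit3 overlaps Mars and Gm4189 on the other strand, and a further row with its name held 0 counts in every mouse and was not used. Trib3, a pseudokinase that restrains ATF4 and CHOP, had 12.3, 8.17, and 9.22 CPM in control and 10.4, 10.1, and 9.85 CPM in OIR mice. The OIR values lay inside the control range here too, with a log2 fold change of 0.03 ± 0.27.

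Chac1, an enzyme that breaks down glutathione and a sensitive target of this pathway, had 4.44, 3.47, and 3.93 CPM in control and 5.77, 4.75, and 8.82 CPM in OIR mice. Each OIR mouse lay above each control mouse, most clearly OIR mouse 6. The log2 fold change was 0.71 ± 0.57, with an adjusted p of 0.49. Slc7a11, the cystine transporter subunit that supplies glutathione synthesis, had 6.43, 13.3, and 3.16 CPM in control and 6.31, 21.4, and 32.4 CPM in OIR mice. OIR mice 5 and 6 lay above all controls, while OIR mouse 3 lay below 2 of them. Its log2 fold change of 1.39 ± 0.66 was the highest of the 10, with an unadjusted p of 0.064 and an adjusted p of 0.24. Both of these genes had an unadjusted p below 0.05 when treated OIR mouse 2 was left out of the fit (0.036 and 0.044), where 12.2% of all genes were higher at that level, and neither was called, with adjusted p-values of 0.14 and 0.16.

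Asns, asparagine synthetase, had 35.0, 33.8, and 46.4 CPM in control and 30.2, 29.1, and 39.4 CPM in OIR mice. The groups overlapped, with 2 OIR mice below all controls, and the log2 fold change was -0.22 ± 0.21. Sesn2, which signals leucine shortage to the growth regulator mTORC1, had 37.8, 37.9, and 37.6 CPM in control and 34.9, 34.7, and 47.3 CPM in OIR mice. The controls were nearly identical and OIR mice lay on both sides of them, with a log2 fold change of 0.04 ± 0.20. Sesn2 overlaps Gm12981, which lies on the same strand and also held counts. Psat1, the aminotransferase of serine synthesis, had 55.2, 44.8, and 64.0 CPM in control and 41.8, 43.7, and 61.5 CPM in OIR mice, and its log2 fold change was -0.16 ± 0.23. Phgdh, which catalyses the first step of that route, had 19.0, 9.96, and 10.4 CPM in control and 10.5, 10.2, and 17.4 CPM in OIR mice. In each of these groups 1 mouse lay above the others, and the log2 fold change was -0.05 ± 0.57.

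**Figure D2:**
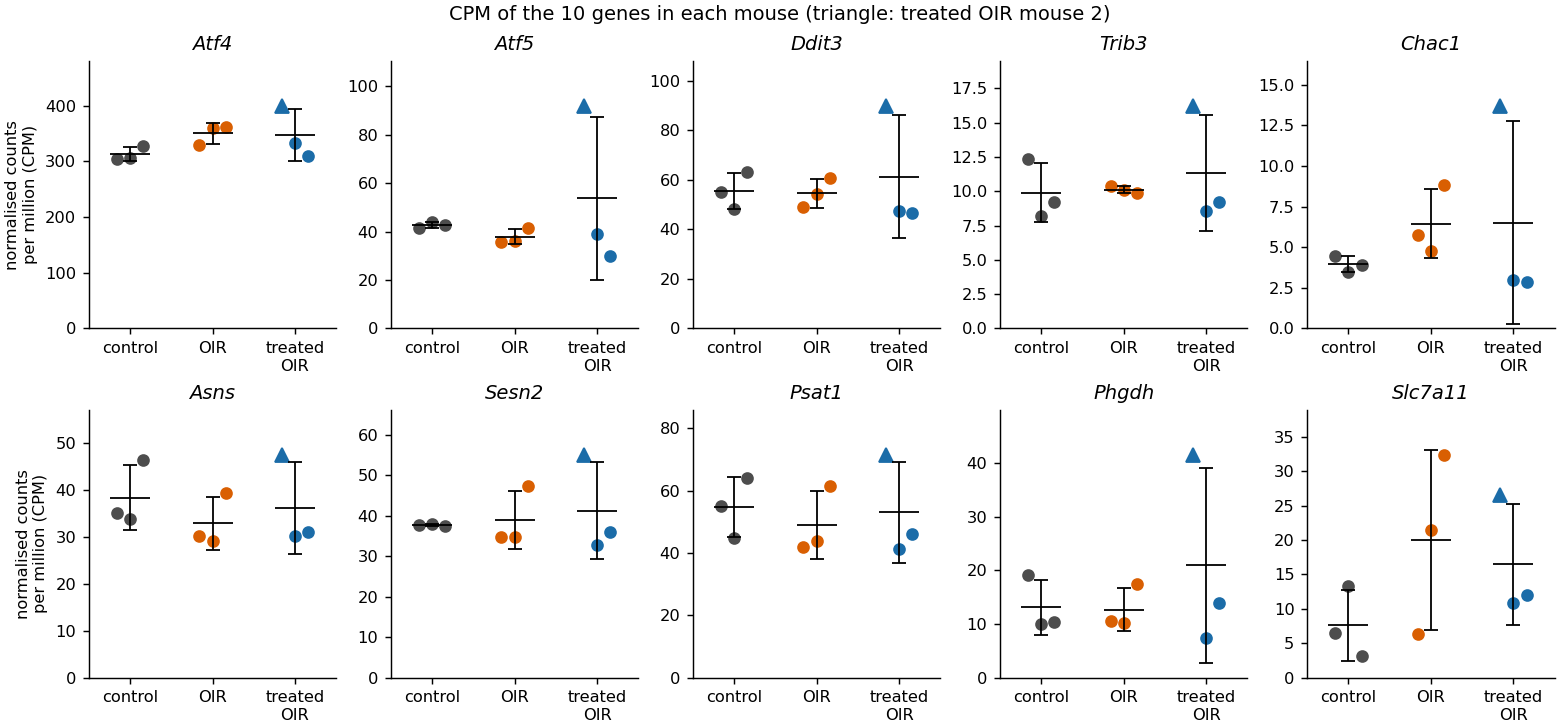
CPM of the 10 genes in each of the 9 mice, with a point per mouse (a triangle for treated OIR mouse 2) and the mean ± SD of each group of 3; each axis starts at 0. Treated OIR mouse 2 is the highest of the 9 mice for every gene but Slc7a11, whose highest value, 32.4 CPM, is in OIR mouse 6.

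In treated OIR mice the 10 genes were again not called. Compared with control, 0 of 10 passed the adjusted p of 0.05 in edgeR, where 0.0228% of all genes did. Compared with OIR, 0 of 10 passed, and so did 0% of all genes. At an unadjusted p below 0.05 there was none in either comparison, whereas 10% and 8.6% of all genes were higher and lower compared with control, and 2.39% and 2.3% compared with OIR. DESeq2 on all 9 mice called 0 of 10 compared with control, where it called 4.7% of all genes. Compared with OIR, DESeq2 on these 2 groups alone called 0 of 10, where it called 18 of 16926 genes higher and 57 lower. No gene of the 10 had groups that did not overlap, against 12.8% of all genes higher and 12.2% lower compared with control, and 3.74% and 5.39% compared with OIR. Without treated OIR mouse 2, 5 of 10 lay wholly below control (Atf5, Ddit3, Chac1, Asns, and Sesn2) and 3 of 10 wholly below OIR (Ddit3, Trib3, and Chac1), and none lay wholly above. With 2 mice against 3, 17.3% and 17.1% of all genes lay below in these comparisons, and 18.2% and 16.1% above. The comparisons share the treated OIR mice, and the first shares the controls with the comparison of OIR with control.

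Treated OIR mouse 2 was the highest of the 9 mice for 9 of the 10 genes, whereas it was highest for 18.2% of all genes tested. These ranks depend on the scaling, since its TMM factor, 0.852, was the lowest of the 9 and raises its CPM. Relative to total counts alone, Atf4, Asns, Sesn2, and Psat1 were higher in another mouse than in mouse 2. The lowest value of each gene lay in treated OIR mice 5 or 10 for 6 of the 10. Phgdh stood at 41.6 CPM in treated OIR mouse 2 and at 7.30 and 13.98 CPM in treated OIR mice 5 and 10. The value in mouse 2 was 2.18-fold that of the next highest mouse of the 9, control mouse 1. Atf5 stood at 92.0 CPM in mouse 2 and at 38.9 and 30.1 CPM in the other treated mice, and its value in mouse 2 was 2.08-fold the next highest. For Chac1 the values were 13.7, 3.01, and 2.83 CPM, so that treated mice 5 and 10 were the lowest of all 9 mice while mouse 2 was the highest, at 1.55-fold the next.

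Ddit3 had 90.0 CPM in mouse 2 and 47.3 and 46.6 CPM in mice 5 and 10. Trib3 had 16.2, 8.59, and 9.20 CPM, and its values in mice 5 and 10 lay inside the control range. For Sesn2 the values were 55.1, 32.7, and 36.1 CPM, the latter 2 below all controls. Psat1 had 71.6, 41.3, and 46.2 CPM. For these 4 genes mouse 2 was between 1.12-fold and 1.43-fold the next highest mouse, a smaller lead than for Phgdh and Atf5. In Asns, with 47.5, 30.2, and 31.0 CPM, mouse 2 was nearly level with control mouse 7, at 1.03-fold. Atf4 had 400 CPM in mouse 2 and 332 and 310 CPM in mice 5 and 10, or 1.10-fold the next highest, OIR mouse 6. Slc7a11 had 26.6, 10.8, and 12.0 CPM, and mouse 2 was second to OIR mouse 6.

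In mouse 2 the sums of some marker lists lay outside the range of the other mice. Those of rod, endothelial, and microglia and macrophage markers, at 41514, 64.9, and 82.2 CPM, lay inside it. Red blood cell markers had their highest sum in mouse 2, 169 CPM against 9.45 to 133 CPM in the other mice. Of their 5 genes, 2 were highest there. Of 7 pigment epithelium markers 3 were lowest there, with a sum inside the range of the other mice. Lens genes were highest in mouse 2, and ganglion cell genes were lowest in it for 7 of 8. Müller glia markers were mixed. Of these 8, 4 were lowest in mouse 2, and no marker was at 0. The sum of all 8 was 3637 CPM, against 3993 to 6090 CPM in the other mice. Glul had 941 CPM in mouse 2 and 2090 to 3040 CPM in the other mice. Crym and Dkk3, at 505 and 1494 CPM, were second only to OIR mouse 6. Slc1a3, at 286 CPM, lay above all controls. These 4 genes were named after their values were seen. The next highest lens sum, 971 CPM against 124462 CPM in mouse 2, was in OIR mouse 3. Among the other 8 mice, the highest value lay in OIR mouse 6 for 4 of the 10 genes, Atf4, Chac1, Sesn2, and Slc7a11. It lay in control mouse 7 for 3, Ddit3, Asns, and Psat1, in control mouse 1 for 2, and in control mouse 6 for 1. Among all 9 mice, these 4 mice were highest for 11.9%, 20.1%, 9.26%, and 8.36% of all genes tested. The share among the other 8 mice was not computed. The part of lens, ganglion cell, or other cell content in the values of mouse 2 was not tested.

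With all mice, log2 fold changes of treated OIR compared with control ran from -0.08 to 1.10 with a median of 0.17. The largest were 1.10 ± 0.66 (SE) for Slc7a11, 0.72 ± 0.58 for Chac1, and 0.67 ± 0.57 for Phgdh, with adjusted p-values of 0.39, 0.52, and 0.54 from edgeR. Those of Atf4, Atf5, Ddit3, Trib3, and Sesn2 were 0.15, 0.33, 0.14, 0.19, and 0.13, and those of Asns and Psat1 were -0.08 and -0.04. Compared with OIR they ran from -0.29 to 0.72 with a median of 0.13, and the 2 most positive were 0.72 ± 0.57 for Phgdh and 0.50 ± 0.34 for Atf5. Those of Ddit3, Trib3, Asns, Psat1, Sesn2, and Chac1 lay between 0.01 and 0.16, that of Atf4 was -0.01, and that of Slc7a11 was -0.29. Every adjusted p in this comparison was 0.9998.

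Without treated OIR mouse 2, the direction of most of these values turned. Compared with control, 8 of 10 log2 fold changes were then below 0, with a median of -0.27, and those above 0 were 0.04 for Atf4 and 0.58 for Slc7a11. Compared with OIR, 10 of 10 were below 0, with a median of -0.15, beside a median of 0.01 over all genes. The largest difference was that of Chac1, with a log2 fold change of -1.12 ± 0.33, an unadjusted p of 0.0072, and an adjusted p of 0.22. It was the 1 gene of the 10 with an unadjusted p below 0.05, where 4.69% of all genes were lower at that level. Slc7a11 followed at -0.78 ± 0.66, and those of the other 8 lay between -0.23 and -0.08. Again 0 of 10 were called in either comparison, where 0.0166% and 0% of all genes were.

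Marker lists of several cell types also shifted, in both directions. In the same fit of treated OIR compared with OIR, without mouse 2, 8 of 8 ganglion cell markers were higher at an unadjusted p below 0.05, with a median log2 fold change of 1.57, and 6 of 7 endothelial markers, with a median of 1.01. Of 7 pigment epithelium markers 4 were higher. Of 7 microglia and macrophage markers 5 were lower, with a median of -1.05, and of 8 Müller glia markers 3 were lower and 1 higher, with a median of -0.42. At that level 1513 of all 18116 genes were higher and 849 lower. No rod or lens marker passed it, with medians of 0.17 and -0.92. Of 5 red blood cell markers 1 was higher, with a median of 1.32. None of these markers passed an adjusted p of 0.05. Endothelial markers summed to 264 and 229 CPM in treated OIR mice 5 and 10, to between 56.0 and 205 CPM in OIR mice, and to between 114 and 134 CPM in controls. Microglia and macrophage markers summed to 76.8 and 77.5 CPM in treated OIR mice 5 and 10, to between 138 and 261 CPM in OIR mice, and to between 65.0 and 246 CPM in controls. No marker of these lists was at 0 in all mice, and their part in the values of the 10 genes was not tested.

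**Figure D3:**
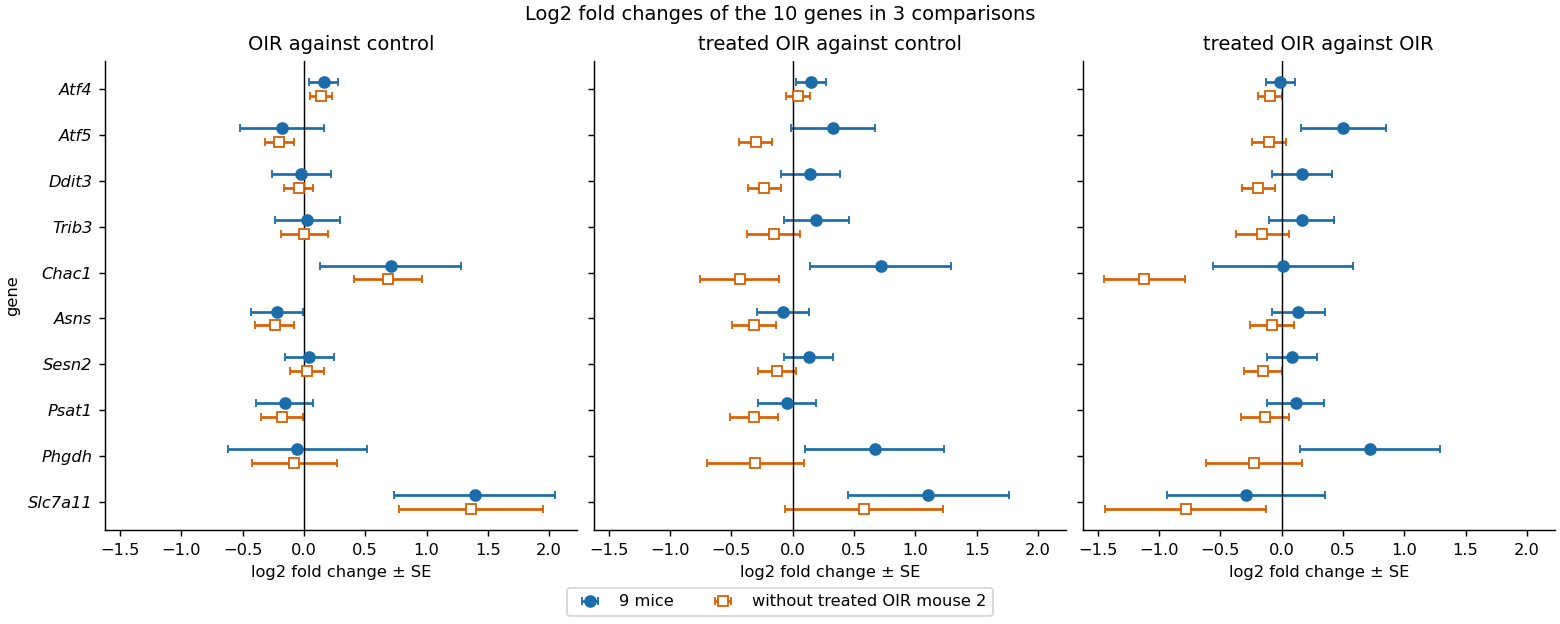
Log2 fold change ± SE of the 10 genes in the 3 comparisons, with all 9 mice (filled circles) and without treated OIR mouse 2 (open squares). In OIR against control both fits lie close together, and in both comparisons of treated OIR mice the median moves from above 0 to below 0, from 0.17 to -0.27 and from 0.13 to -0.15.

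The wider pathway was read from 7 lists with 101 genes other than the 10, of which 100 were tested. In OIR compared with control, 0 of 100 were higher and 1 was lower at an adjusted p below 0.05 in edgeR, beside 0.941% of all genes called. At an unadjusted p below 0.05 14 were higher and 9 lower, beside 11.1% and 12.7% of all genes. The 1 gene was Jdp2, a repressor of the AP-1 and ATF family. It had 24.4, 23.9, and 26.6 CPM in control, 15.6, 14.03, and 14.9 CPM in OIR, and 16.1, 16.6, and 15.8 CPM in treated OIR mice. Both OIR groups lay below the controls, in treated OIR mouse 2 as in the others, with log2 fold changes of -0.75 ± 0.11 (adjusted p = 0.041) and -0.63 ± 0.11 (adjusted p = 0.10) compared with control, the latter -0.62 without mouse 2. The call in OIR was lost when control mouse 1, 6, or 7, OIR mouse 3, 5, or 6, or treated OIR mouse 5 was left out, with log2 fold changes from -0.78 to -0.70. No gene of the 7 lists was called in either comparison of treated OIR mice, where 0.0228% and 0% of all genes were. At an unadjusted p 15 were higher and 6 lower compared with control, beside 10% and 8.6% of all genes, and 0 and 3 compared with OIR, beside 2.39% and 2.3%. The latter 3 were Aldh1l1, Cth, and Oplah. DESeq2 on all 9 mice called 5 genes of the lists in treated OIR mice compared with control, Stc2, Slc7a5, Jdp2, Slc6a9, and Wars, where it called 4.7% of all genes. The names in these 2 sentences, other than Slc7a5 and Jdp2, were chosen after their values were seen.

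The count of the OIR comparison depended on treated OIR mouse 2, which enters it through the scaling, the filter, and the shared estimate of spread. Without that mouse 7 of 100 genes rose and 4 fell, where 12.5% of all genes were called. DESeq2 on control and OIR mice alone gave 12 higher and 5 lower, where 15.6% of all genes were called. The share of the pathway genes called was near that of all genes in both. The genes that rose without mouse 2 were Slc1a4, Shmt2, Gldc, Aldh1l1, Eif2ak3, Stc2, and Nupr1, and those that fell were Slc6a9, Pck2, Wars, and Jdp2. Of these, Stc2, Nupr1, Gldc, Aldh1l1, Slc6a9, Pck2, and Wars were chosen after their values were seen.

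Serine, glycine, and one-carbon genes had a median log2 fold change of 0.35 over 16 genes in OIR, compared with 0.03 over all genes. Without treated OIR mouse 2, 3 of the 16 were called, beside 12.5% of all genes. Psph, the last enzyme of serine synthesis, had 21.2, 18.4, and 25.1 CPM in control and 24.7, 21.1, and 27.4 CPM in OIR mice, and like Phgdh and Psat1 it was not called, with a log2 fold change of 0.18 ± 0.19. Shmt2, the mitochondrial enzyme that turns serine into glycine, had 64.5, 55.6, and 57.1 CPM in control, 75.7, 85.6, and 90.4 CPM in OIR, and 139, 62.2, and 62.5 CPM in treated OIR mice. The OIR mice lay above the controls, and of the treated mice only mouse 2 lay above them. Its log2 fold change in OIR was 0.51 ± 0.28, and 0.48 with an adjusted p of 0.015 without that mouse. Gldc, the glycine decarboxylase of the glycine cleavage system, had 39.5, 63.9, and 35.1 CPM in control and 68.1, 81.0, and 109 CPM in OIR mice, with a log2 fold change of 0.90 ± 0.24. Aldh1l1, a folate enzyme and a marker of astroglia, had 23.3, 27.5, and 23.8 CPM in control, 36.0, 36.2, and 42.6 CPM in OIR, and 29.8, 28.0, and 24.8 CPM in treated OIR mice. Its log2 fold changes were 0.62 ± 0.13 in OIR compared with control, with an adjusted p of 0.056, and -0.48 ± 0.13 in treated OIR compared with OIR, with an adjusted p of 0.98, and -0.51 with an adjusted p of 0.20 without mouse 2. The log2 fold changes in OIR were -0.09 ± 0.47 for Shmt1, the cytosolic counterpart of Shmt2, and 0.48 ± 0.48 for Mthfd2, a mitochondrial folate enzyme, and neither was called.

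Müller glia markers, which lie in the cells that hold much of this metabolism, summed to between 3993 and 5320 CPM in control and between 5151 and 6090 CPM in OIR mice. Of the 8 markers, 1 rose in OIR, the glutamate transporter gene Slc1a3, and 0 fell, with a median log2 fold change of 0.41. Without treated OIR mouse 2 Slc1a3 rose, with a log2 fold change of 0.93 and an adjusted p of 0.0071, and Rgr, an opsin family gene, fell by 1.06 on the log2 scale, with an adjusted p of 0.023. Rgr had 83.7, 64.7, and 82.3 CPM in control and 52.3, 34.7, and 25.2 CPM in OIR mice. Both were named after their values were seen. Their part in the values of Gldc, Aldh1l1, and Shmt2 was not tested.

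Other targets of ATF4 had a median log2 fold change of 0.44 over 23 genes in OIR, compared with 0.03 over all genes. They moved in both directions, with 4 higher and 4 lower at an unadjusted p below 0.05 in edgeR, beside 11.1% and 12.7% of all genes. The 1 gene called with all mice, Jdp2, was lower. Without treated OIR mouse 2, 3 were called higher and 3 lower, beside 12.5% of all genes called. Slc1a4, a transporter of serine and other neutral amino acids, had 20.1, 20.01, and 19.7 CPM in control, 37.5, 31.2, and 39.5 CPM in OIR, and 80.5, 25.3, and 26.8 CPM in treated OIR mice. Every OIR and treated OIR mouse lay above every control, with log2 fold changes of 0.85 ± 0.39 and 1.15 ± 0.40, and adjusted p-values of 0.23 and 0.20. Without treated OIR mouse 2 it rose in OIR, by 0.83 with an adjusted p of 0.0057, and in treated OIR mice the value was 0.39 with an adjusted p of 0.26. Slc7a5, the light chain of the large neutral amino acid transporter, had 146, 127, and 147 CPM in control, 190, 183, and 196 CPM in OIR, and 297, 218, and 163 CPM in treated OIR mice. Its log2 fold changes were 0.44 ± 0.19 and 0.69 ± 0.19, with adjusted p-values of 0.20 and 0.15, and the latter was 0.45 without mouse 2. Slc3a2, the heavy chain that both SLC7A5 and SLC7A11 require, had 201, 175, and 177 CPM in control and 219, 250, and 337 CPM in OIR mice, with a log2 fold change of 0.55 ± 0.23 and an adjusted p of 0.19. OIR mouse 6 was the highest of the OIR mice for Slc3a2 and for Slc7a11.

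Stc2, stanniocalcin 2, a secreted protein, had 6.18, 6.79, and 6.96 CPM in control, 22.3, 15.8, and 28.0 CPM in OIR, and 76.0, 25.8, and 19.0 CPM in treated OIR mice. Both OIR groups lay wholly above the controls, with log2 fold changes of 1.73 ± 0.48 (adjusted p = 0.089) and 2.60 ± 0.49 (adjusted p = 0.10), and without treated OIR mouse 2 they were 1.71 (adjusted p = 0.0042) and 1.76 (adjusted p = 0.083). Nupr1, a small stress-induced nuclear protein, had 17.4, 17.7, and 8.45 CPM in control, 25.7, 48.4, and 121 CPM in OIR, and 331, 18.8, and 7.04 CPM in treated OIR mice. The spread within each OIR group was wide, and the log2 fold change of treated OIR compared with control, 3.02 ± 1.25 with all mice, was -0.18 without mouse 2. Slc6a9, the glycine transporter GlyT1, had 93.8, 138, and 144 CPM in control, 68.0, 74.3, and 45.3 CPM in OIR, and 41.9, 70.6, and 81.2 CPM in treated OIR mice. All 6 OIR and treated OIR mice lay below the controls, with log2 fold changes of -1.0 ± 0.28 and -0.95 ± 0.28 and adjusted p-values of 0.090 and 0.16, and without mouse 2 the latter was -0.71. Pck2, the mitochondrial PEP carboxykinase, had a log2 fold change of -0.42 ± 0.10 in OIR, with an adjusted p of 0.071. Ddit4, an inhibitor of mTORC1 that is also induced by hypoxia, had 149, 151, and 168 CPM in control, 188, 183, and 157 CPM in OIR, and 259, 220, and 169 CPM in treated OIR mice. Its log2 fold change was 0.17 ± 0.15 in OIR and 0.47 ± 0.15 in treated OIR mice compared with control, the latter 0.33 without mouse 2, and none was called.

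**Figure D4:**
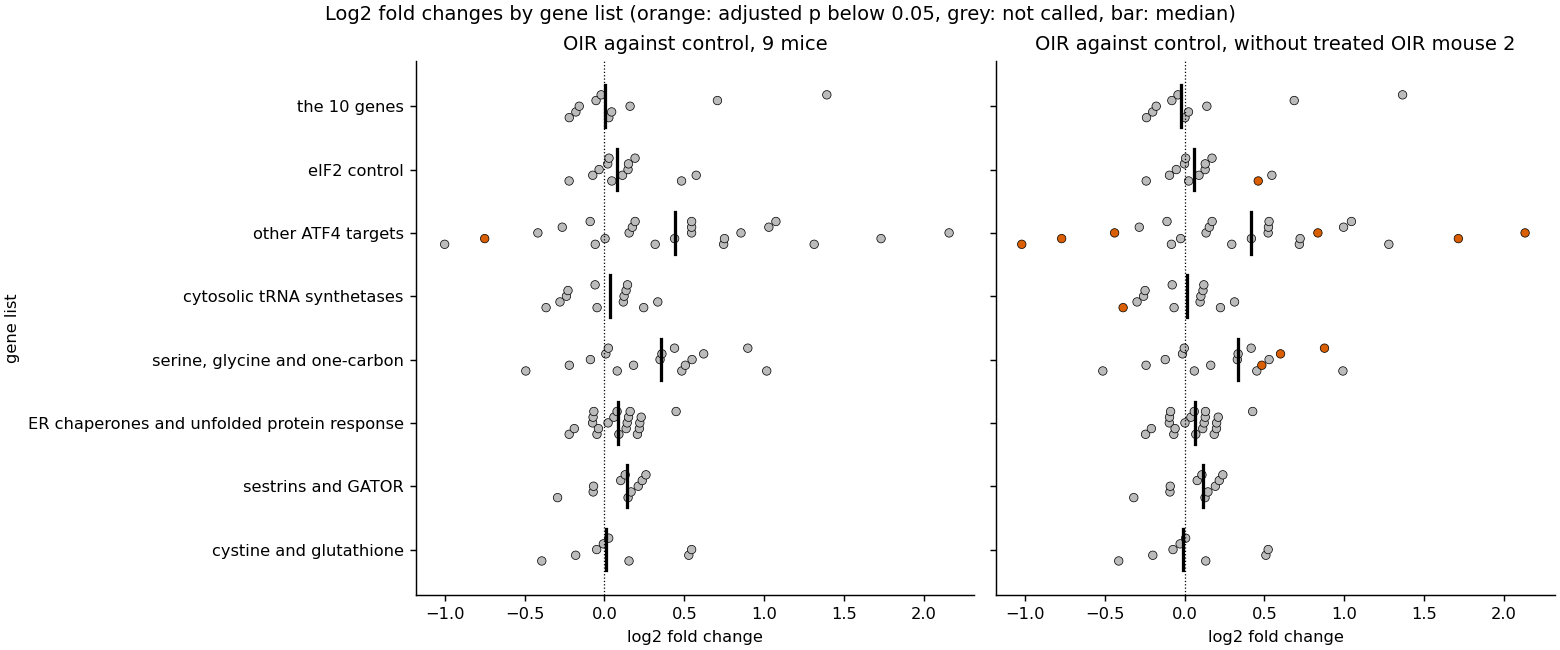
Log2 fold changes in OIR against control for the 10 genes and the 7 lists, with a point per gene, a bar at the median of each list, and genes with an adjusted p below 0.05 in orange. With 9 mice (left) 1 gene, Jdp2, is called, and without treated OIR mouse 2 (right) 11 are, none of them among the 10 genes.

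The upstream and parallel arms are given by list. The 12 genes listed under eIF2 control had a median log2 fold change of 0.08 in OIR. They encode the eIF2 kinases, phosphatase subunits, a subunit of eIF2 itself, and the subunits of eIF2B. Eif2ak3, the kinase PERK that senses stress of the endoplasmic reticulum, had 38.1, 39.5, and 36.4 CPM in control, 48.1, 50.6, and 60.6 CPM in OIR, and 53.5, 50.2, and 43.5 CPM in treated OIR mice. Every OIR and treated OIR mouse lay above the controls, with log2 fold changes of 0.48 ± 0.12 and 0.37 ± 0.12 and adjusted p-values of 0.071 and 0.18, and without treated OIR mouse 2 they were 0.46, with an adjusted p of 0.032, and 0.31, with an adjusted p of 0.33. Eif2ak4, the kinase GCN2 that senses uncharged tRNA, and Ppp1r15a, a phosphatase subunit that ends the response, had log2 fold changes of 0.11 ± 0.16 and 0.15 ± 0.27 in OIR. Ppp1r15a stood at 50.1 CPM in treated OIR mouse 2 and between 20.5 and 27.6 CPM in the other 8 mice.

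The 20 ER chaperones and genes of the unfolded protein response had a median log2 fold change of 0.08, with 0 called. Hspa5, the chaperone BiP that is induced when unfolded proteins accumulate, had a log2 fold change of 0.02 ± 0.18 in OIR. The 12 cytosolic tRNA synthetases had a median of 0.04, and 4 of them (Sars, Nars, Wars, and Yars, named after their values were seen) were lower at an unadjusted p below 0.05 and 0 higher, beside the 12.7% and 11.1% of all genes. With adjustment 0 were called with all mice and 1 lower, Wars, without treated OIR mouse 2, where its adjusted p was 0.022. Wars had 104, 109, and 123 CPM in control and 90.1, 84.8, and 86.0 CPM in OIR mice, with a log2 fold change of -0.37 ± 0.093. Sestrins and the GATOR complexes had a median of 0.14 over 10 genes, with log2 fold changes of 0.24 ± 0.11 for Sesn1 and 0.21 ± 0.12 for Sesn3, the relatives of Sesn2. Cystine and glutathione genes had a median of 0.01 over 8 genes. In these last 2 lists 0 genes were called with or without treated OIR mouse 2.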

How the data were processed

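Bulk RNA-Seq counts of mouse retina were analysed from 3 control, 3 OIR, and 3 treated OIR mice, grouped by their labels. The deposited values are whole-number read counts, not normalized by the authors, beside a length in bases for every gene. The submitters' processing notes name CASAVA and HISAT without versions; the counting tool and the use of strand are not given in the sources used here. Coordinates are on GRCm38, since 98.3% of the identifiers that GENCODE M21 also lists sit at an identical place in it. No column of any mouse duplicated that of another.

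Counts were fitted with edgeR 4.0.16 (TMM factors, default filter by group, quasi-likelihood test) on all 9 mice in R 4.3.3. Log2 CPM used a prior count of 2, and exact permutation tests were two-sided. Total counts of 16028731 or more leave the spread among 3 mice as the limit of precision, and counting error adds to it for the lowest genes. Alternatives were DESeq2 1.42.0, limma 3.58.1 (voom), other scalings, no filter, sex as a covariate (read from Xist and Y-linked genes), and leaving out each mouse. On simulated counts for the OIR comparison, with 200 of 17213 genes changed by 2 on the log2 scale, edgeR recovered 87% of them, and 14 of the 188 genes called were not changed. The changed genes were drawn only from genes above a minimum mean CPM. All mice shared a common mean per gene apart from the change, so no mouse like treated OIR mouse 2 was simulated. The named genes are the 10 members, 14 partners picked by role, and any other gene of the 7 lists that was called; further ones are marked as chosen after their values were seen. Members, lists, and tests were chosen with earlier results of these data known. Tables and figures used Python 3.11.15.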

Additional observations from a re-analysis of the deposited data

How the results depend on the processing

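None of the 10 genes was called in any of the 3 comparisons under any of the 18 alternative fits run or with a minimum log2 fold change of 1, and the lowest adjusted p was 0.11, for Slc7a11 in OIR compared with control with DESeq2 on all 9 mice. Of 540 alternative log2 fold changes of the 10 genes, 480 kept their sign and 60 did not. Where the sign turned with 1 mouse left out, log2 fold changes in OIR compared with control ran from -0.11 to 0.083 for Ddit3, -0.094 to 0.22 for Trib3, -0.12 to 0.12 for Sesn2, -0.35 to 0.32 for Phgdh, -0.36 to 0.21 for Shmt1, and -0.036 to 0.13 for Hspa5. In treated OIR compared with control they ran from -0.30 to 0.61 for Atf5, -0.23 to 0.31 for Ddit3, -0.15 to 0.38 for Trib3, -0.43 to 1.08 for Chac1, -0.32 to 0.075 for Asns, -0.13 to 0.27 for Sesn2, -0.31 to 0.11 for Psat1, -0.30 to 1.07 for Phgdh, and -0.18 to 3.58 for Nupr1. In treated OIR compared with OIR they ran from -0.10 to 0.063 for Atf4, -0.10 to 0.79 for Atf5, -0.19 to 0.33 for Ddit3, -0.16 to 0.33 for Trib3, -1.12 to 0.37 for Chac1, -0.079 to 0.29 for Asns, -0.15 to 0.25 for Sesn2, -0.14 to 0.31 for Psat1, -0.23 to 1.13 for Phgdh, and -0.78 to 0.24 for Slc7a11. The limma-voom fit with sample weights gave values of the other sign, 0.064 for Ddit3, -6.77e-05 for Sesn2, and 0.072 for Phgdh in OIR compared with control, and -0.20 for Atf5, -0.077 for Ddit3, -0.20 for Chac1, -0.12 for Sesn2, and -0.21 for Phgdh in treated OIR compared with control, and -0.14 for Ddit3, -0.16 for Trib3, -0.90 for Chac1, -0.039 for Asns, -0.12 for Sesn2, -0.10 for Psat1, and -0.29 for Phgdh in treated OIR compared with OIR. Scaling by total counts gave 0.051 for Ddit3 in OIR compared with control, and -0.18 for Chac1, -0.0420 for Sesn2, and -0.015 for Psat1 in treated OIR compared with OIR. Upper-quartile scaling gave -0.0202 for Chac1 in treated OIR compared with OIR. Removing crystallin genes gave 0.0045 for Atf4 in treated OIR compared with OIR. No filter on low counts gave -0.00268 for Chac1 in treated OIR compared with OIR. Sex as a covariate gave 0.040 for Phgdh in OIR compared with control, and -0.27 for Chac1 and 0.078 for Slc7a11 in treated OIR compared with OIR. No called value turned its sign, and the causes of these turns were not tested.

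The count of pathway genes called in OIR compared with control, 1 in the fit reported, was 8 with DESeq2 on all 9 mice, 17 with DESeq2 and 12 with edgeR on the 2 groups compared, 2 with upper-quartile scaling, 0 with total counts alone, 4 with no filter, 12 with limma-voom, 0 with sex as a covariate, and 0 with a minimum log2 fold change of 1, and it ranged from 0 to 11 with 1 mouse left out, the 11 without treated OIR mouse 2. In treated OIR compared with control, 0 in the fit reported, it was 5 with DESeq2 on all 9 mice, 4 with DESeq2 on the 2 groups, 1 (Stc2) with no filter, and 5 with limma-voom. The Jdp2 call in OIR was also lost with total counts alone and with sex as a covariate, at log2 fold changes of -0.68 and -0.75. No paired analysis was possible because the groups compared share at most 1 replicate number, and the labels tie no equal numbers together.

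The power to detect differences as small as those of most of the 10 genes was not tested. Counts of 49 to 720 for Slc7a11 and of 49 to 216 for Chac1 leave counting error in the lowest values.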
